A study of Mus musculus with 9 samples.

Results

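The 10 genes described here are markers of the stem and progenitor cells of the pituitary gland. They are the SOX transcription factor genes Sox2, Sox3, Sox9 and Sox21, the homeobox factor gene Prrx1, the zinc finger factor gene Klf4, the neurotrophic factor receptor gene Gfra2, and the genes of the calcium-binding protein S100b, the intermediate filament nestin (Nes) and the tetraspanin Cd9. They were taken by name, with no threshold on a measured value, and are 10 of the 55450 annotated mouse genes in the deposited count files. All 10 averaged at least 5 counts per library and were tested, as were 19371 genes in all.

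The study sequenced poly(A) RNA from dissected mouse tissue, so that the developing gland could be set against the mature one. The embryonic group was 7 libraries of Rathke's pouch from Sox2Egfp/+ embryos at e13.5, on a 129Sv/c57BL6J background. The adult group was 2 libraries of anterior pituitary at postnatal week 8 on the same background, dissected with the posterior lobe removed; the genotype of the adults is not given in the sources used. Both groups held males and females, but the sex of each library is not given. Whether transcript of the Sox2Egfp allele is counted as Sox2 is not given either, which limits the Sox2 level of the embryos. Counted read pairs ran from 16738863 to 28537311 per embryo library and were 36421545 and 31191117 in adults 1 and 2. Of all read pairs, 59.7% were counted on genes in embryo 1 and 62.8% in embryo 4. The share was 73.9% to 80.0% in embryos 2, 3, 5, 6 and 7, and the adults reached 84.0% and 83.7%.

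Rathke's pouch is an epithelial pocket of the oral ectoderm that gives rise to the anterior and intermediate lobes. Its cells express Sox2, and in the mature gland a minority of hormone-negative cells that keep Sox2, many of them lining the cleft between the lobes, can self-renew and form hormone-producing cells. Sox9, S100b, Gfra2, Prrx1, Nes, Klf4 and Cd9 have been used to mark all or some of these cells, and several of the same genes are also expressed in glia, vessels, mesenchyme or cartilage.

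Of the 10 markers, 7 differed between the stages at an adjusted p below 0.05 in edgeR. Sox3, Sox21, Gfra2 and Nes were higher in the embryo (4 of 10, beside 24.0% of all genes tested). Sox2, Prrx1 and Cd9 were higher in the adult (3 of 10, beside 27.4%). Sox2 is among these 3 by its counts only, since its direction for both alleles together cannot be told. Over both directions the share of all genes tested was 51.4%, and no test over the list was made. Counts of genes higher in a stage, given below for other lists, are to be read beside these shares. With a fold change above 4 also asked for, which is what "called" means below, Sox3, Sox21 and Gfra2 were called higher in the embryo (3 of 10, beside 11.3% of all genes) and Prrx1 higher in the adult (1 of 10, beside 14.6%), 4 of 10 in all beside 25.8%. The same 7 genes had every embryo on one side of both adults, which held for 59.1% of all genes tested. The median log2 fold change, embryo over adult, was 0.65 over the 10 markers and -0.04 over all genes tested. In whole tissue, fewer cells that express a gene and less of its RNA per cell cannot be told apart. Levels below are CPM, the counts of a gene per 1e6 counts of the library scaled by TMM factors, and a standard error (SE) is the size of the log2 fold change over the square root of the edgeR F statistic. The p-values measure the spread between these samples; intervals and floors cover counting error only.

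**Figure D1:**
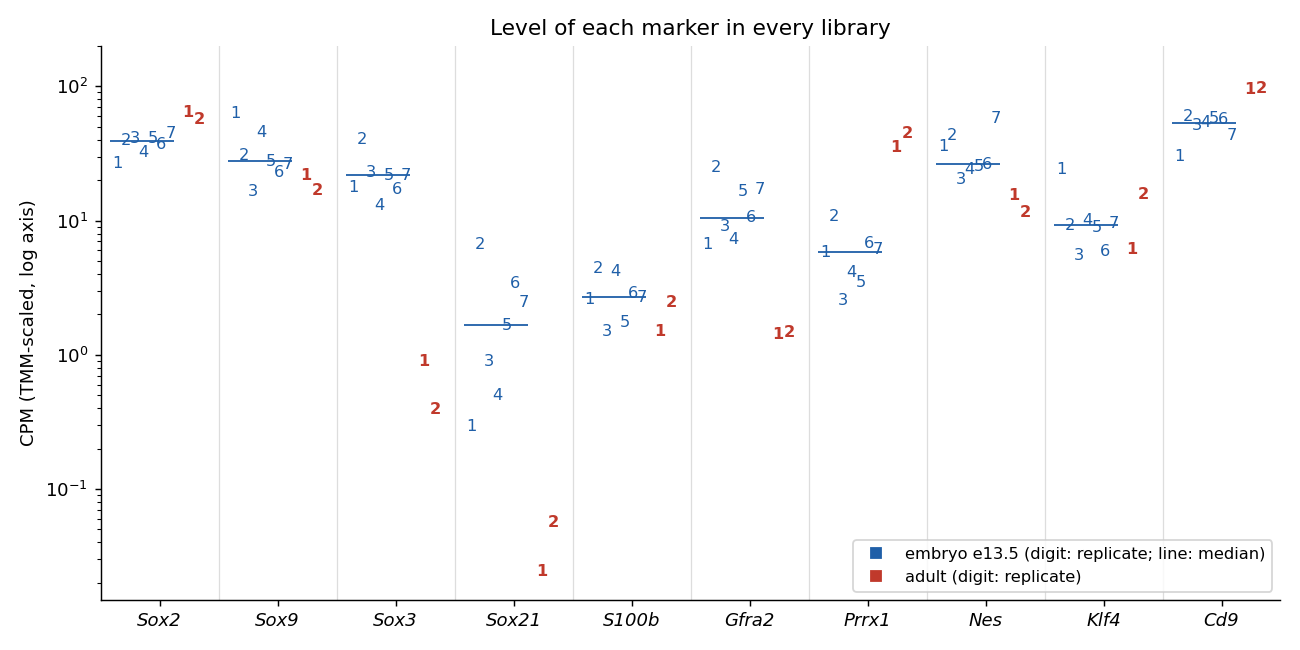
Level of each of the 10 markers in every library (TMM-scaled CPM, log axis), with the digit giving the replicate, embryos in blue with a line at their median, and adults in red. Sox3, Sox21, Gfra2 and Nes have all 7 embryos above both adults, and Sox2, Prrx1 and Cd9 have all 7 below.

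A promoter entry of RefSeq (GRCm38.p6) was at hand for 7 of the 10 markers, and not for Sox9, Sox3 or Gfra2. The 5 that differed between the stages and have an entry are shown. Markers higher in the adult (Cd9, Prrx1 and, by its counts, Sox2) can thus be read beside markers higher in the embryo (Sox21, Nes). The direction of Sox2 for both alleles together cannot be told, as given below. Each runs from 250 bases before to 50 bases after the annotated start, on the strand of the gene: Sox2 at chr3:34649745-34650044 (plus), Cd9 at chr6:125494711-125495010 (minus), Prrx1 at chr1:163313601-163313900 (minus), Sox21 at chr14:118236981-118237280 (minus) and Nes at chr3:87970843-87971142 (plus). Capitals mark matches, on either strand, to the SOX heptamer NNCAANG with A or T at each N, to TATAAA, to CCAAT and to the GC box GGGCGG.
Sox2: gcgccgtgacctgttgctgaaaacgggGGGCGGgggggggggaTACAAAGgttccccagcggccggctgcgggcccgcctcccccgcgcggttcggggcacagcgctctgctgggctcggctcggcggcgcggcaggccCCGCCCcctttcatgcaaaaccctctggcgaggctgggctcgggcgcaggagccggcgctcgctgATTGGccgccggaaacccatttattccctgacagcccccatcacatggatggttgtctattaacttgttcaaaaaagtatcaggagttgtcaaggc
Cd9: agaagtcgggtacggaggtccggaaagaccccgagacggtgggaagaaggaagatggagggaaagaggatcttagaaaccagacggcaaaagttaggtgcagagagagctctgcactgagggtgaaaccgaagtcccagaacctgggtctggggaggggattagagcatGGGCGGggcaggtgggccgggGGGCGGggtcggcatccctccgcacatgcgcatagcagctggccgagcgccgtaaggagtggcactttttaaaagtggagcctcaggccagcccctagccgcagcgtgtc
Prrx1: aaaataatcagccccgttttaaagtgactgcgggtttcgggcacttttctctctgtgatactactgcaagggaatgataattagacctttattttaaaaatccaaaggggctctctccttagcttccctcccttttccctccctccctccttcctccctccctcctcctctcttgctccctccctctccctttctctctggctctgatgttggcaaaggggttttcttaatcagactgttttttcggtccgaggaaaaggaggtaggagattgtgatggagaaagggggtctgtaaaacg
Sox21: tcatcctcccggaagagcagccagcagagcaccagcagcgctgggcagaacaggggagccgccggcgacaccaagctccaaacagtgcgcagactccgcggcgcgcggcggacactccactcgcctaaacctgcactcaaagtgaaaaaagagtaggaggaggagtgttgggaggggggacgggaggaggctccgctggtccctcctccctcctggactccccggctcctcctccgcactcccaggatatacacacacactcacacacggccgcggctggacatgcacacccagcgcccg
Nes: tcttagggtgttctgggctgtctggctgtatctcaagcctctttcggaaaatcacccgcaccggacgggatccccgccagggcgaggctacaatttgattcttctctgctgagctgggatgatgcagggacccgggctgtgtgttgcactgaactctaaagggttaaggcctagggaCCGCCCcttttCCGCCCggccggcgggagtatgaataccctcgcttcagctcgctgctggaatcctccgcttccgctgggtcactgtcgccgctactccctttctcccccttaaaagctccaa
The Sox2 promoter held 1 SOX match, 1 CCAAT and 2 GC boxes, and the RefSeq start lies 410 bases upstream of the start of the counted model. Cd9 and Nes held 2 GC boxes each, so the GC box occurred on both sides of the comparison, while Prrx1 and Sox21 held none of the motifs. Of the 7 markers with an entry, 1 held a SOX heptamer, 2 held CCAAT, 4 held a GC box and 0 held TATAAA. Among 32851 mouse promoters of the same length the shares were 24.6%, 37.4%, 35.7% and 13.6%.

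Sox2, Sox3 and Sox1 make up the SOXB1 group of factors, which act in progenitors of the nervous system and of several placode-derived tissues. Sox2 (ENSMUSG00000074637, chr3:34650405-34652461) was measured at 26.5 to 44.8 CPM in the embryos (median 39.4) and at 64.1 and 56.8 CPM in adults 1 and 2. Every embryo was below both adults, with embryo 1 the lowest and embryo 7 the highest. The log2 fold change was -0.70 (SE 0.25, adjusted p = 0.0282), 1.62-fold higher in the adult. Because that change is below 2-fold and transcript of the Sox2Egfp allele may not be counted, the direction for the transcript of both alleles together cannot be told from these counts. Several single libraries decide whether Sox2 passed the adjusted p, which was 0.0662 without embryo 4 (log2 fold change -0.61) and 0.0512 without embryo 6 (-0.65). Sox2 also did not pass without adult 1 (-0.63) or without adult 2 (-0.79). With 1 adult left out, the lone adult is assumed to vary like the embryos. With replicate number as a block the log2 fold change was -0.90 (adjusted p = 0.0714). With a correction for transcript length and GC content it was -1.24 (adjusted p = 2.0e-04), the only alternative in which the change was past 2-fold. The adjusted p was 0.0516 without embryos 1 and 4 together (-0.55), and 0.0731 with no filter on low counts (-0.69).

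Sox3 (ENSMUSG00000045179, chrX:60891366-60893430), whose loss or gain of copies is known to cause hypopituitarism, was higher in the embryo. Its level was 13.1 to 40.3 CPM in the embryos (median 21.7) and 0.897 and 0.394 CPM in the adults, from 37 and 14 counts. All 7 embryos were above both adults; embryo 2 stood apart from the other embryos, of which the next was embryo 3 at 22.9 CPM. The log2 fold change was 5.08 (SE 0.57, adjusted p = 1.1e-05), 33.7-fold higher in the embryo. Without adult 1 it was 5.77 and without adult 2 it was 4.6, so the size of the change rests on which adult is used.

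Within the SOXB1 group the balance differed between the stages. Taken per kilobase of exon, Sox2 made up 43.1% to 66.9% of the summed Sox1, Sox2 and Sox3 level in the embryos (median 59.6%), and 98.1% and 98.4% in adults 1 and 2. Sox3 made up 27.3% to 43.9% in the embryos (median 32.0%) and 1.37% and 0.679% in the adults. Embryo 2 had the lowest Sox2 share and the highest Sox3 share, and embryo 4 the highest Sox2 share and the lowest Sox3 share. The share of Sox1 was 5.69% to 13.1% in the embryos (median 7.55%) and 0.490% and 0.891% in the adults. For all 3 genes the embryo and adult shares did not overlap. The embryo shares carry the limit given for Sox2: if transcript of the Sox2Egfp allele is not counted, the Sox2 share of both alleles would be higher and those of Sox3 and Sox1 lower.

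**Figure D2:**
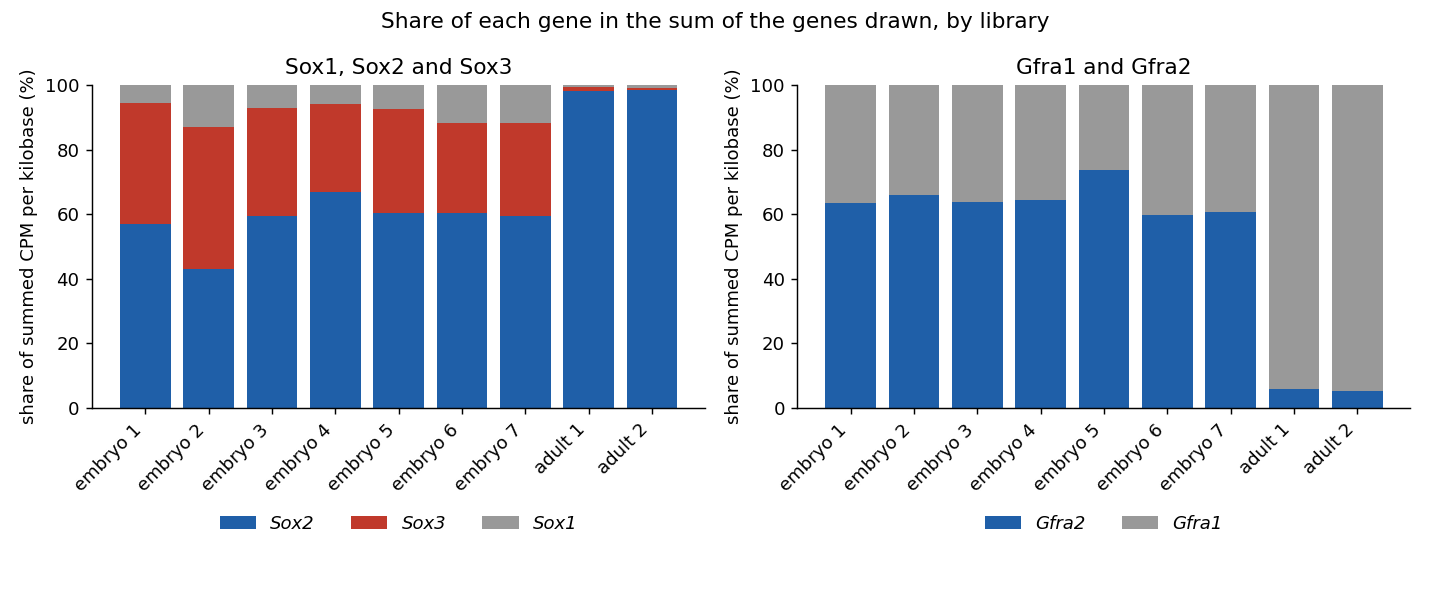
Share of each gene in the summed CPM per kilobase of the genes drawn (%), stacked for every library, for Sox1, Sox2 and Sox3 on the left and Gfra1 and Gfra2 on the right. Sox2 is at 43.1% to 66.9% in the embryos and at 98.1% and 98.4% in the adults, and Gfra2 is at 59.7% to 73.6% in the embryos and at 5.85% and 5.28% in the adults.

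Sox21 (ENSMUSG00000061517, chr14:118233232-118237030), a SOXB2 factor that counters SOXB1 activity in neural progenitors, was the least abundant marker in the adult. It was measured at 0.293 to 6.62 CPM in the embryos (median 1.67), and at 0.0242 and 0.0562 CPM in the adults, where it had 1 and 2 counts. The embryos differed 22.6-fold among themselves, from embryo 1 with 4 counts to embryo 2 with 196, yet each was above both adults. The pooled counts, 421 in the embryos and 3 in the adults, give a ratio of 67.0 with an exact 95% binomial interval of 22.8 to 326. This interval covers counting error only and leaves out the spread between animals. In edgeR the log2 fold change was 5.69 (SE 1.39, adjusted p = 0.0037); it was 5.14 without embryo 2 and 6.28 without adult 2, and without adult 1 the adjusted p was 0.0478. An opposite-strand gene, Gm4675, overlaps 18.8% of the Sox21 exon, and reads on the strand opposite to Sox21 were 6.44% of its stranded counts in the embryos and 25% (1 of 4) in the adults.

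Sox9 (ENSMUSG00000000567, chr11:112782224-112787760), a SOXE factor of progenitors, cartilage and glia, did not pass the test. Its level was 16.6 to 62.6 CPM in the embryos (median 27.6) and 21.6 and 16.8 CPM in the adults. In 6 embryos it was above both adults and in embryo 3 it was below both, and embryos 1 and 4 were the highest, embryo 4 at 45.4 CPM. Sox9 had a log2 fold change of 0.78 (SE 0.43, adjusted p = 0.141); it was 0.39 (adjusted p = 0.276) without embryos 1 and 4, and 1.19 (adjusted p = 0.0174) with replicate number as a block. Over all alternatives its adjusted p ran from 0.0174 to 0.459. Per kilobase, Sox9 was 61.8% to 89.5% of the summed SOXE genes Sox8, Sox9 and Sox10 in the embryos (median 74.5%) and 80.0% and 80.6% in the adults, so the shares overlapped.

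The markers of cartilage and of Schwann and neural crest cells, where SOXE genes are also expressed, were in the libraries. Of 6 cartilage genes 4 could be tested and all 4 passed an adjusted p of 0.05, 3 higher in the embryo and 1 higher in the adult. Their summed level was 163 to 375 CPM in the embryos (median 258) and 32.7 and 13.2 CPM in the adults, with Col2a1 the most abundant per kilobase and Matn1 and Snorc at 0 in both adults. Embryo 1, the highest for Sox9, was the lowest for this sum. The 5 Schwann and neural crest genes, of which 2 passed with 1 in each direction, summed to 17.9 to 47.7 CPM in the embryos (median 44.4) and 25.6 and 29.3 CPM in the adults, with Erbb3 the most abundant per kilobase. Erbb3 did not pass (0.90, adjusted p = 0.0917), but did without embryo 2 (1.04, adjusted p = 0.0230) and with the length and GC correction (1.66, adjusted p = 0.0085). Foxd3, the gene that passed towards the embryo, was at 0 in both adults and at 0 to 1.22 CPM in the embryos (median 0.212), highest in embryo 2. Its adjusted p was 0.0264, but 0.131 without adult 1, 0.125 without adult 2, 0.139 with the replicate block and 0.0928 with unstranded counts. Matn1 was at 0 to 1.17 CPM in the embryos (median 0.0642), with 16 of its 24 embryo counts in embryo 1, and the adult floor of 3 counts is up to 0.0843 CPM. The part of these cells in the Sox9 level was not tested.

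Other SOX factors were tested for 15 of 15 genes, with a median log2 fold change of 1.71. Of them, 7 were higher in the embryo (beside 24.0% of all genes tested) and 1 in the adult (beside 27.4%). These counts were the same with library sizes alone as scaling, and 7 and 0 both with the length and GC correction (median 1.08) and with the replicate block. The largest changes towards the embryo were those of Sox14, a SOXB2 relative of Sox21, at 1.19 to 13.4 CPM in the embryos and 0.485 and 0.309 CPM in the adults (4.22, adjusted p = 0.0014), and of Sox1, at 6.23 to 28.1 CPM and 0.752 and 1.21 CPM (3.89, adjusted p = 3.3e-04). Sox14 and Sox1, like Sox3 and Sox21, were highest in embryo 2. The 1 gene higher in the adult was Sox5 (-0.84, adjusted p = 0.0372), which had an adjusted p of 0.267 without adult 1 (-0.68) and 0.0938 without adult 2 (-1.01). It was also lost without embryo 1 (-0.77, 0.0555), embryo 3 (-0.70, 0.0661), embryo 5 (-0.79, 0.0666) or embryo 6 (-0.79, 0.0630), with the replicate block (-0.74, 0.266) and with no filter on low counts (-0.83, 0.0799), and Sox5 had a log2 fold change of 0.59 (adjusted p = 0.106) with the length and GC correction. Sox4, the most abundant of the list per kilobase, was at 116 to 331 CPM in the embryos and 170 and 95.6 CPM in the adults, and the groups overlapped.

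Gfra2 (ENSMUSG00000022103, chr14:70890120-70979838) is the receptor, with Ret, for neurturin. Its level was 6.67 to 25 CPM in the embryos (median 10.5) and 1.41 and 1.46 CPM in adults 1 and 2. The adults lay close together and below every embryo, and embryo 2 was the highest, ahead of embryo 7 at 17.1 CPM. Gfra2 had a log2 fold change of 3.20 (SE 0.59, adjusted p = 5.2e-04), 9.16-fold higher in the embryo, and 3.08 with the length and GC correction.

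Ligands and receptors of the same family, the GDNF family, were tested for 8 of 9 genes, Pspn falling below the count filter. Of the 8, 1 was higher in the embryo (beside 24.0% of all genes tested) and 2 in the adult (beside 27.4%). Their median was -0.72, and with library sizes alone the counts were 1 and 3. The median was -0.07 with the length and GC correction and -0.09 with the replicate block. Gfra1, the receptor for GDNF, was at 5.93 to 19.9 CPM in the embryos and 35 and 40.6 CPM in the adults (-1.77, adjusted p = 0.0021). Per kilobase, Gfra2 was 59.7% to 73.6% of the pair Gfra1 and Gfra2 in the embryos (median 63.9%), and 5.85% and 5.28% in the adults. Of all 4 receptors, Gfra1 to Gfra4, it was 21% in embryo 1, the lowest, to 54.2% in embryo 5 (median 42.8%), and 4.34% and 2.88% in the adults. Neurturin (Nrtn), the ligand of Gfra2 and the most abundant of the list per kilobase, was at 6.48 to 24.8 CPM in the embryos and 8.63 and 7.59 CPM in the adults, with embryo 7 below both adults (0.89, adjusted p = 0.12, and 1.02 and 0.0450 without embryo 7). Gdnf was at 0 to 1.18 CPM in the embryos and at 3.08 and 16.9 CPM in adults 1 and 2 (-4.57, adjusted p = 8.2e-04); adult 2 decides that call, since without it the change was -2.92 (adjusted p = 0.0940). Gfra3, the artemin receptor, had 3 and 7 counts in the adults (3.35, adjusted p = 0.0123), and its adjusted p was 0.127 without adult 1 (2.79) and 0.0501 without adult 2 (4.17).

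Prrx1 (ENSMUSG00000026586, chr1:163245119-163313710), a homeobox factor of mesenchyme that also marks pituitary progenitors, was the only marker called higher in the adult. Its level was 2.56 to 10.8 CPM in the embryos (median 5.79) and 35 and 44.8 CPM in the adults. Even embryo 2, the highest, was below both adults, and embryo 3 was the lowest. The log2 fold change was -2.82 (SE 0.39, adjusted p = 6.5e-05), 7.05-fold higher in the adult. With the length and GC correction it was -1.42 (adjusted p = 0.0109), which is past the adjusted p but not past a fold change of 4. Its exons span 11066 bases in union, the longest of the 10 markers, and over all genes tested the Spearman correlation of the log2 fold change with transcript length was -0.388 before and 0.0154 after that correction.

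The related gene Prrx2 was the more abundant of the pair in the embryo. Per kilobase, Prrx1 was 5.67% to 18.5% of the summed Prrx1 and Prrx2 level in the embryos (median 9.81%), and 71.3% and 69.3% in the adults. Of 7 mesenchyme and connective tissue markers, 5 were higher in the embryo (beside 24.0% of all genes tested) and 2 did not pass. Their summed level was 676 to 2364 CPM in the embryos (median 1696), with embryo 3 the lowest and embryo 7 the highest, and 719 and 460 CPM in the adults, with Col3a1 the most abundant per kilobase and none at 0 in a stage. Embryo 3 was thus the lowest both for Prrx1 and for these markers. The part of mesenchyme in the Prrx1 level was not tested.

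Nes (ENSMUSG00000004891, chr3:87971078-87980451) encodes nestin, a filament protein of neural progenitors that is also found in young vessels. Its level was 20.1 to 57.6 CPM in the embryos (median 26.2) and 15.4 and 11.4 CPM in the adults. All 7 embryos were above both adults, with embryo 7 the highest, embryo 2 next at 43.1 CPM and embryo 3 the lowest. Nes had a log2 fold change of 1.31 (SE 0.41, adjusted p = 0.0151). The adjusted p was 0.0604 without adult 1 (1.52), 0.153 without adult 2 (1.10) and 0.0761 with library sizes alone (1.13). With the length and GC correction the change was 2.03 (adjusted p = 7.2e-04), past a fold change of 4.

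Endothelial and neural markers were in the same libraries as Nes. Of 6 endothelial genes 4 were higher in the embryo, and their sum was 165 to 577 CPM in the embryos (median 276), highest in embryo 2 and lowest in embryo 3, and 175 and 112 CPM in the adults. Of 7 neuron and neural progenitor genes 6 could be tested, Neurog2 falling below the filter, and 2 passed, both higher in the adult; the sum was 187 to 384 CPM in the embryos (median 278), highest in embryo 3, and 412 and 325 CPM in the adults. Plvap and Tubb3 were the most abundant of the lists per kilobase, and Plvap passed with the length and GC correction alone (-0.90, adjusted p = 0.0290). The part of these cells in the Nes level was not tested.

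S100b (ENSMUSG00000033208, chr10:76253853-76261159), a marker of folliculostellate cells and glia, showed no difference that passed the test. Its level was 1.5 to 4.36 CPM in the embryos (median 2.7) and 1.5 and 2.47 CPM in the adults, from the lowest in embryo 3 to the highest in embryo 2, and the groups overlapped. The log2 fold change was 0.51 (SE 0.54, adjusted p = 0.442) and -0.19 (adjusted p = 0.759) with the length and GC correction. Of the 7 folliculostellate and glial markers, 4 were higher in the adult and 1 in the embryo. They summed to 313 to 584 CPM in the embryos (median 355), with embryo 2 the highest, and to 767 and 896 CPM in the adults, above all embryos; Apoe was the most abundant per kilobase and none was at 0 in a stage. Apoe did not pass (-0.87, adjusted p = 0.0648), but did in 6 alternatives, among them without embryo 2 (-1.11, adjusted p = 0.0089) and with the length and GC correction (-1.78, adjusted p = 7.8e-04). The part of these cells in the S100b level was not tested.

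The other S100 genes were tested for 6 of 7, S100a4 falling below the filter. Of the 6, 5 were higher in the embryo (beside 24.0% of all genes tested). That direction was lost with the length and GC correction, with which 1 was higher in the embryo and 1 in the adult. S100a11, the most abundant per kilobase, was at 89.2 to 201 CPM in the embryos and 50.6 and 48.4 CPM in the adults (1.56, adjusted p = 0.0021), but -0.073 (adjusted p = 0.792) after the correction. S100a13 was at 13.6 to 56.3 CPM and at 6.01 and 6.19 CPM (2.40, adjusted p = 0.0016), and 0.83 (adjusted p = 0.0494) after it. S100a10 was at 109 to 419.5 CPM and at 70.1 and 59.2 CPM (1.89, adjusted p = 0.0061), with 0.34 (adjusted p = 0.425) after the correction and 1.76 (adjusted p = 0.0692) without adult 2. S100b itself was 0.169% to 0.530% of the 8 S100 genes per kilobase in the embryos (median 0.275%), and 0.440% and 0.758% in the adults.

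Klf4 (ENSMUSG00000003032, chr4:55527143-55532466), a factor used to reprogram somatic cells to pluripotency, gave the change nearest to 0. It was measured at 5.48 to 24.1 CPM in the embryos (median 9.22) and at 6.06 and 15.6 CPM in adults 1 and 2, which differed 2.57-fold. Embryo 1 was above the other embryos, of which embryo 4 was next at 10.0 CPM, and the groups overlapped. For Klf4 the log2 fold change was -0.06 (SE 0.52, adjusted p = 0.935). Its sign turned without adult 2 (0.77), embryo 3 (0.10) or embryo 6 (0.09) and with the replicate block (0.61), while it was -0.60 without adult 1 and -0.36 without embryo 1, and none of these passed the test.

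Other Krüppel-like factors and pluripotency partners were tested for 10 of 12 genes, since Pou5f1 and Nanog fell below the filter. Of the 10, 5 were higher in the adult (beside 27.4% of all genes tested) and 5 did not pass. Their median was -0.84, and the counts were the same with library sizes alone. With the length and GC correction 4 were higher in the adult (median -0.40), as with the replicate block. Klf9, a factor induced by glucocorticoid and thyroid hormone, was at 2.28 to 9.10 CPM in the embryos and 65.7 and 65.2 CPM in the adults (-3.81, adjusted p = 1.1e-05). Klf15 was at 0.731 to 1.58 CPM and at 10.4 and 12.9 CPM (-3.36, adjusted p = 1.4e-05). Klf6 was the most abundant of the list per kilobase over both stages, although in the adults Klf9 was higher (13.6 beside 9.62). It was at 19.2 to 39.8 CPM in the embryos and at 44.7 and 39.8 CPM in the adults (-0.39, adjusted p = 0.270). With the length and GC correction Klf6 was at 0.47 on the log2 scale. Per kilobase, Klf4 was 8.22% to 17.5% of the 10 Krüppel-like factors counted in the embryos (median 9.93%), with embryo 1 the highest, and 3.33% and 8.10% in the adults.

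Cd9 (ENSMUSG00000030342, chr6:125460266-125494791), a tetraspanin of the cell surface, was higher in the adult. Its level was 30.3 to 59.3 CPM in the embryos (median 53.3) and 95.4 and 97.2 CPM in the adults. All 7 embryos were below both adults, embryo 1 being the lowest and embryo 2 the highest. This gave a log2 fold change of -0.94 (SE 0.26, adjusted p = 0.0077) and -1.59 with the length and GC correction. Both adults were needed to pass the adjusted p, while the log2 fold change was -0.97 without adult 1 and -0.94 without adult 2. The opposite-strand gene Gm26728 overlaps 10.7% of its exon bases, and the counts used here keep the strands apart.

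Among the other tetraspanins few passed the test. Of 9 tested, 1 was higher in the embryo (beside 24.0% of all genes tested) and 8 did not pass. Their median was 0.12, and -0.13 with library sizes alone. With the length and GC correction 1 was higher in the embryo and 2 in the adult, and with the replicate block 2 and 1. The 1 was Cd151, at 165 to 382 CPM in the embryos and 110 and 93.3 CPM in the adults (1.44, adjusted p = 0.0034; without adult 2, 1.32 and 0.0599). For Cd151 the length and GC correction gave 0.73 (adjusted p = 0.0472). Cd63, the most abundant per kilobase, was at 244 to 629 CPM in the embryos and 284 and 269 CPM in the adults, with embryo 7 below both. It did not pass (0.75, adjusted p = 0.0893), but did without embryo 7 (0.87, adjusted p = 0.0243) and with the replicate block (1.12, adjusted p = 0.0101). Per kilobase, Cd9 was 3.40% to 6.81% of the 10 tetraspanins in the embryos (median 5.36%) and 11.6% and 12.7% in the adults, with no overlap.

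**Figure D3:**
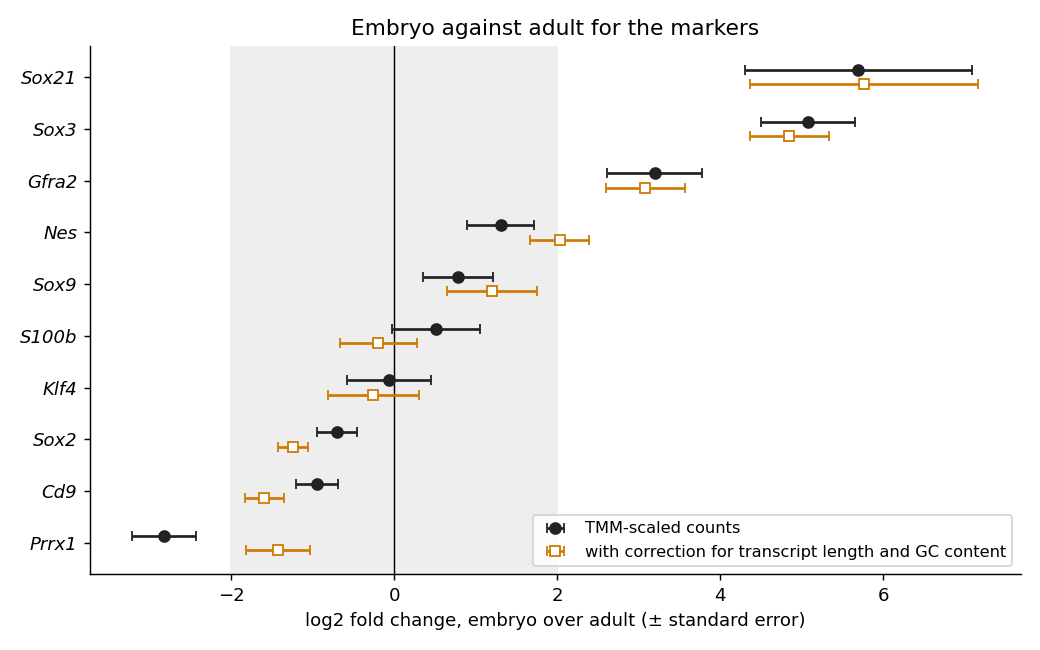
Log2 fold change, embryo over adult, of the 10 markers with bars of 1 standard error, from TMM-scaled counts (filled circles) and with a correction for transcript length and GC content (open squares); grey marks changes below 4-fold. The correction moves Prrx1 from -2.82 to -1.42 and Nes from 1.31 to 2.03.

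Set in order by the mean CPM per kilobase, the embryo levels were Cd9 24.5, Sox2 18.1, Sox3 10.7, Sox9 8.00 and Nes 5.17. Then came Gfra2 3.71, Klf4 3.42, S100b 1.92, Sox21 0.596 and Prrx1 0.510. If transcript of the Sox2Egfp allele is not counted, the Sox2 level of both alleles could lie above that of Cd9 in the embryo. Neighbours in this order were not cleanly apart: each was above the next in 5 or 6 of 7 embryos, except S100b, which was above Sox21 in 7 of 7. In the adult the order was Cd9 47.1, Sox2 29.4, Sox9 4.64, Prrx1 3.61, Klf4 3.55, Nes 2.09, S100b 1.34, Gfra2 0.405, Sox3 0.313 and Sox21 0.0106. Prrx1 and Klf4, Klf4 and Nes, and Gfra2 and Sox3 were reversed or level in 1 of the 2 adults. With the longest transcript as the length, the embryo level of Prrx1 was 0.864, above that of Sox21, and its adult level was 6.11, above that of Sox9 in both adults. Cd9 was then 40.8 in the embryo and 78.4 in the adult, still at the top of both orders by these counts.

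The place of each marker among the 19371 genes tested, by CPM per kilobase, shifted with stage. Sox3 went from place 4194 in the embryo to 16044 in the adult, Gfra2 from 7699 to 15493 and Sox21 from 13947 to 19083. In the other direction Prrx1 went from 14386 to 8791 and Cd9 from 2168 to 626. By its counts Sox2 went from 2786 to 1168, a direction that cannot be told for both alleles together. In the adult gland Cd9 and Sox2 were thus among the more abundant genes, and Sox3 and Sox21 among the least abundant.

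Among single embryos, embryo 2 was the highest for 6 of the 10 markers (Sox3, Sox21, S100b, Gfra2, Prrx1 and Cd9), beside 14.5% of all genes tested, and the lowest for 0, beside 8.60%. Embryo 3 was the lowest for 5 (Sox9, S100b, Prrx1, Nes and Klf4), beside 12.9% of all genes. Embryo 1 was the lowest for 4 (Sox2, Sox21, Gfra2 and Cd9), beside 25.8%, and the highest for 2 (Sox9 and Klf4), beside 18.1%. Embryo 7 was the highest for Sox2 and Nes, beside 19.1%. No test was made of these counts. Sox2 was the steadiest marker, with a coefficient of variation of 16.6% over the embryos, beside a median of 38.1% over the 19273 genes tested with counts in the embryos. Genes with fewer counts carry more counting error, and that median was not matched for level.

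Cell type markers also differed between these embryos. The 7 erythroid markers, 6 of them higher in the embryo, summed to 169309 CPM in embryo 1 and 212275 CPM in embryo 4. That is 13.8% and 16% of the counted read pairs. Embryos 2, 3, 5, 6 and 7 had 6067 to 18878 CPM and the adults 763 and 1977 CPM. Hbb-y was the most abundant per kilobase in the embryo, but averaged 0.165 CPM in the adult, beside 865 CPM for Hbb-bs. Embryos 1 and 4 were also those with the lowest share of counted read pairs, the lowest Sox2 and Sox21 and the highest Sox9. The 6 posterior lobe and hypothalamic markers, 3 higher in each stage, summed to 78.3 to 216 CPM in the embryos (median 131), with embryo 2 the highest and embryo 4 the lowest, and to 38.9 and 48.8 CPM in the adults. Rax, of the ventral hypothalamus and posterior lobe, was their most abundant gene per kilobase over both stages, although Avp was higher in the adults (4.48 beside 0.307). Rax was at 1.48 and 2.11 CPM in the adults and at 29.2 to 92.8 CPM in the embryos, again highest in embryo 2 and lowest in embryo 4. Sox3, which the hypothalamus also expresses, was highest and lowest in the same embryos. Embryo 2 was the highest for the folliculostellate and glial, the endothelial and the immune sums as well. The part of erythroid and hypothalamic cells in these levels was not tested.

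**Figure D4:**
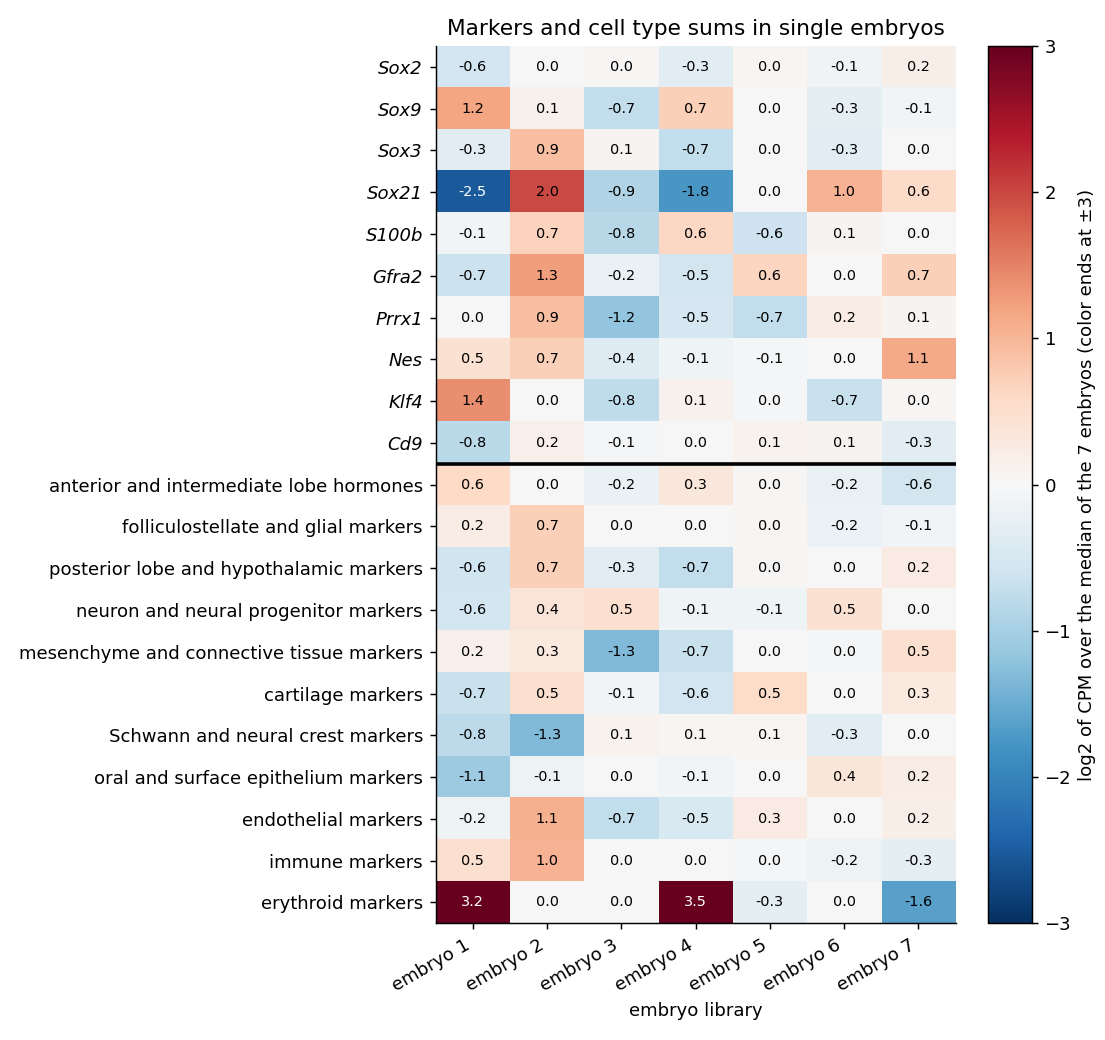
Log2 of the level in each embryo over the median of the 7 embryos, for the 10 markers (CPM, above the line) and for the summed CPM of 11 cell type marker lists (below the line). Embryo 2 is the highest for 6 markers, and embryos 1 and 4 stand out for erythroid markers.

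The other cell types expected in such tissue gave the following sums. The 7 hormone genes of the anterior and intermediate lobes, 6 of them higher in the adult, summed to 870 to 1920 CPM in the embryos (median 1276). In the adults the sums were 152482 and 160059 CPM, 17.3% and 18.3% of the counted read pairs. Gh was the most abundant per kilobase over both stages, but in the embryo it averaged 0.465 CPM, beside 865 CPM for Cga. Avp, a neuropeptide of axons in the posterior lobe, was at 0 in all embryos and at 1.75 and 3.43 CPM in the adults; the mean of the adults was at least 11.8-fold above the highest embryo floor, 0.220 CPM (3 counts in embryo 1). The 5 oral and surface epithelium genes, 2 higher in the embryo and 1 in the adult, summed to 6.74 to 18.4 CPM in the embryos (median 14.2) and to 60.4 and 23.6 CPM in the adults, with Perp the most abundant per kilobase. Perp was the gene higher in the adult (-2.10, adjusted p = 6.7e-04), and without adult 1 its adjusted p was 0.0848 (-1.22). The 5 immune genes, 2 higher in the embryo and 1 in the adult, summed to 92.7 to 230 CPM in the embryos (median 112), with embryo 2 the highest, and to 71.4 and 111 CPM in the adults, with C1qb the most abundant per kilobase. C1qb (1.0, adjusted p = 0.0350) had an adjusted p of 0.302 without adult 1 (0.70), 0.0664 without adult 2 (1.35), 0.119 with library sizes alone (0.76) and 0.618 with the length and GC correction (-0.17). Their part in the marker levels was not tested.

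Other transcription factors act beside the markers in the pouch. Of 12 progenitor transcription factors 10 were higher in the embryo (beside 24.0% of all genes tested) and 2 did not pass. Their median log2 fold change was 1.37, and 6 were higher both with library sizes alone and with the replicate block. Hesx1, a repressor of the early pouch, was at 11 to 40.4 CPM in the embryos and 0.339 and 0.562 CPM in the adults (5.77, adjusted p = 5.2e-06). Lhx4, a LIM homeobox factor needed for growth of the pouch, was at 5.37 to 42.2 CPM and at 1.09 and 1.38 CPM (4.29, adjusted p = 2.9e-04). Embryo 2, the highest for 6 markers, was the lowest for both Hesx1 and Lhx4. Pitx1, the most abundant of the list per kilobase, was at 240.4 to 541 CPM in the embryos and 134 and 109 CPM in the adults (1.70, adjusted p = 0.0030; without adult 2, 1.55 and 0.0538).

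Surface and filament genes used to sort or stain pituitary stem cells were tested for 11 of 12, Mia falling below the filter. Of these, 4 were higher in the embryo (beside 24.0% of all genes tested) and 7 did not pass, with a median of 0.30. With library sizes alone 2 were higher in the adult as well. With the length and GC correction 6 were higher in the embryo and 2 in the adult (median 0.83), and with the replicate block 4 and 1 (median -0.05). Vim, a filament partner of nestin, was at 380.2 to 934 CPM in the embryos and 43.9 and 41.8 CPM in the adults (3.70, adjusted p = 1.3e-05). Krt18, an epithelial keratin gene, was the most abundant per kilobase, at 166 to 617 CPM and at 74.8 and 73.1 CPM (2.27, adjusted p = 0.0020). With the length and GC correction Krt18 was at 1.32 (adjusted p = 0.0193), no longer past a fold change of 4. Vim, like Sox3 and Gfra2, was highest in embryo 2, where Krt18 was lowest.

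Effectors of signalling in the stem cell niche (of the Notch, WNT, Hippo, FGF and EGF pathways) were tested for 15 of 15. In the embryo 7 were higher (beside 24.0% of all genes tested) and in the adult 2 (beside 27.4%), with a median of 1.06. With library sizes alone the counts were 6 and 2, and with the length and GC correction 10 and 0 (median 1.36). Hes1, a Notch target, was at 46.9 to 73.7 CPM in the embryos and 15.8 and 9.28 CPM in the adults (2.21, adjusted p = 1.1e-04). Hey1, the most abundant per kilobase, was at 72.7 to 169 CPM and at 34.5 and 34.2 CPM (1.82, adjusted p = 7.7e-04). The length and GC correction gave 1.37 for Hes1 (adjusted p = 0.0018) and 1.36 for Hey1 (adjusted p = 0.0031). The 2 higher in the adult, Tead1 (-1.50, adjusted p = 0.0042) and Egfr (-1.25, adjusted p = 0.0102), changed sign with the length and GC correction, to 0.11 (adjusted p = 0.812) and 0.56 (adjusted p = 0.178). With the replicate block the adjusted p of Egfr was 0.0859 (-0.96), and Egfr also did not pass without adult 1 (-1.16). Lef1, a WNT effector, was at 2.53 to 7.93 CPM in the embryos and 1.48 and 1.52 CPM in the adults (1.87, adjusted p = 0.0090), with an adjusted p of 0.0782 without adult 1 (1.83) and 0.075 without adult 2 (1.87).

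Cell division genes were higher in the embryo for 6 of 8 (beside 24.0% of all genes tested), with a median of 2.43. With library sizes alone 5 were higher in the embryo and 1 in the adult. The length and GC correction left 7 higher in the embryo (median 2.09), and the replicate block 5. Birc5, of the chromosomal passenger complex, was at 57.7 to 97.2 CPM in the embryos and 8.61 and 6.92 CPM in the adults (3.43, adjusted p = 3.3e-06). Ccnb1, the mitotic cyclin B1 gene, was at 80.1 to 156 CPM and at 12 and 12.6 CPM (3.22, adjusted p = 1.3e-05). Pcna, a replication clamp gene and the most abundant of the list per kilobase, was at 87.1 to 294 CPM and at 86 and 67.4 CPM (1.23, adjusted p = 0.0140). Its adjusted p was 0.0620 without adult 1 (1.40), 0.142 without adult 2 (1.06), 0.0538 with library sizes alone (1.02) and 0.208 with the replicate block (0.60). The 2 that did not pass with TMM scaling alone, named after their values were seen, were Mki67 (-0.88, adjusted p = 0.148) and Top2a (-0.04, adjusted p = 0.922).

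**Figure D5:**
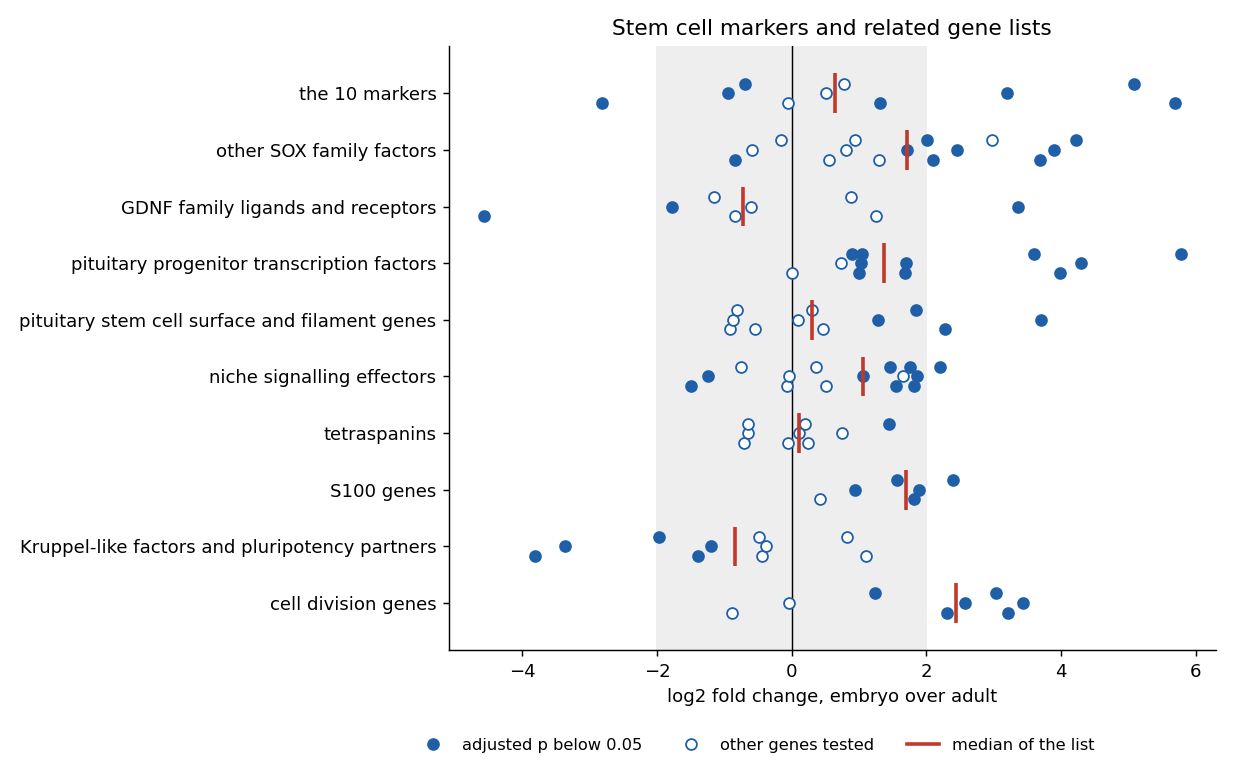
Log2 fold change, embryo over adult, of every tested gene of the 10 markers and of 9 related lists, filled where the adjusted p is below 0.05, with a red line at each list's median and grey for changes below 4-fold. The markers spread on both sides of 0 (4 filled to the right, 3 to the left). Of 12 progenitor transcription factors 10 are filled to the right, beside 24.0% of all genes tested. That count was 6 with library sizes alone and with the replicate block.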

How the data were processed

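Counts are the deposited gene counts that the authors made with Trimmomatic 0.39 and STAR 2.7.5b on mm10 with Ensembl 96, in read pairs per gene. Column 4, the strand of the dUTP library kit, was used, and symbols and positions came from GENCODE. Genes averaging at least 5 counts in the 9 libraries went into edgeR 4.0.16 (R 4.3.3) with TMM scaling and the quasi-likelihood test, embryo against adult, with Benjamini-Hochberg adjustment over all genes tested. A gene was called at an adjusted p below 0.05 and a fold change above 4. Tables and plots were made with Python 3.11.15, pandas 2.3.3, numpy 2.4.6 and matplotlib 3.10.9.

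The members and the gene lists were chosen with earlier results of these data known. The text names all 10 members; of each related list the most abundant gene per kilobase and, in each direction, up to 2 genes with the largest change at an adjusted p below 0.05; and of each cell type list the most abundant gene per kilobase and any gene at 0 in a stage. Genes of a member's family, and opposite-strand neighbours, are named beside it. The most abundant gene per kilobase was taken over both stages together and need not lead in each stage. Alternatives were DESeq2 1.42.0, other scalings, filters and thresholds, unstranded counts, a spline correction for length and GC content, a replicate block and leaving libraries out. Leaving out 14 hormone and erythroid genes was chosen after seeing the data.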

Additional observations from a re-analysis of the deposited data

Results flagged for a closer look

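Of 21 groups of 7 embryos tested (the 10 markers and 11 cell type sums), 4 had an embryo far from the others, its gap to the nearest being large against the whole range. Chance would flag about 1 in 20 groups if values were normally distributed and groups independent. CPM were not put on a log scale for this, and the groups share the same 7 embryos. The 4 flags therefore cannot be read as more than chance gives. Sox3 was 40.3 CPM in embryo 2, beside 22.9 CPM in the next embryo. Klf4 was 24.1 CPM in embryo 1, beside 10.0 CPM in the next. In embryo 2 the folliculostellate and glial markers summed to 584 CPM, beside 414 CPM in the next embryo, and the endothelial markers to 577 CPM, beside 329 CPM. The cause was not tested.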

How the results depend on the processing

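Of 22 alternatives, 19 gave a count of genes called within 1.5 times the 5001 reported. The others gave 2634 (at least 10 counts in every library, which leaves 13491 genes to test), 1744 (a test of the fold change against 4) and 8960 (fold change above 2); leaving out 1 library at a time gave 3683 to 5290. Members called stayed at 3 to 5. Sox3 and Gfra2 were called under each alternative, Sox21 wherever it was tested, and Prrx1 in all but the test against 4 and the length and GC correction. Members past the adjusted p were 4 to 7 with 1 library left out, and 4 both without adult 1 and without adult 2.

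Scaling by library size alone moved the median log2 fold change of all genes by -0.22; the changes given with it are not relative to that shift. The length and GC correction reversed S100b to -0.19, Sox5 to 0.59, Tead1 to 0.11, Egfr to 0.56, S100a11 to -0.073, Klf6 to 0.47, C1qb to -0.17 and Tubb3 to -0.31. Leaving out 1 library gave -0.60 to 0.77 for Klf4 and -0.020 to 0.97 for Tubb3. The cause was not tested.

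With replicate number as a block, Klf4 was 0.61, Erbb3 -0.10 and Plvap 0.21, 4236 genes and 4 members were called, and 7 members passed the adjusted p, with Sox9 among them and Sox2 not. Only numbers 1 and 2 occur at both stages and they number different animals, so this fit keeps 1 residual degree of freedom. Without the 14 hormone and erythroid genes, 4982 genes and 4 members were called. Low counts limit Sox21 in the adult.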
